A study of Mus musculus with 19 samples.

Results

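The histone genes of the mouse were followed through meiotic initiation in preleptotene spermatocytes, the germ cells that replicate their DNA for the last time before meiotic prophase. Members were the gene symbols that begin with Hist1h, Hist2h, Hist3h, Hist4, H1f, H2af or H3f and that rose above 1 TPM (a transcript level scaled for transcript length and library size) in at least 1 of 7 poly(A) RNA libraries. Of 82 such symbols in the tables, 51 met this rule: 39 of 64 clustered replication-dependent genes, 10 of 13 variant and replacement genes, both germline core histone genes (Hist1h2aa and Hist1h2ba) and 0 of 3 germline linker histone genes. Just inside the rule were Hist1h3c and Hist1h2bh, each with a highest level of 1.03 TPM, and just outside were Hist1h2bp at 0.929 TPM and Hist1h2bk at 0.901 TPM.

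The study asked which transcripts change when STRA8, a retinoic acid-induced protein of the germ line, starts meiosis. RNA was taken from sorted preleptotene cells of Stra8-deficient mice (Stra8-/-, 3 libraries) and of Stra8 heterozygous mice (Stra8+/-) in a low-STRA8 group (2 libraries) and a high-STRA8 group (2 libraries). All 7 RNA samples were C57BL/6 males that carried Ddx4-Cre/+ and Rosa26-tdTomato/+, which label the germ-cell lineage for sorting, and all had spermatogenesis synchronized with WIN18,446 on postnatal days 2 to 8 and retinoic acid on day 9, with testes collected 6.75 days later. STRA8 binding was mapped by FLAG ChIP-seq in whole, unsorted synchronized testes of 3 Stra8-FLAG/FLAG and 3 wild-type mice, and the sample numbered 3 of each genotype was made with a different library kit. Because the heterozygous groups keep 1 functional Stra8 allele, no RNA library here was of the wild-type genotype.

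Most histone protein of a dividing cell comes from replication-dependent genes, which lie in clusters, have no introns and are transcribed in S phase with the coactivator NPAT. Their mRNAs end in a conserved stem-loop that is bound by SLBP instead of a poly(A) tail, so that poly(A) selection retains little of them. Variant and replacement histones, such as H3.3, H2A.Z and H1.0, are encoded by scattered genes with polyadenylated mRNAs and are made outside S phase as well. Testis-specific core and linker histones replace parts of this set during spermatogenesis.

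The libraries held between 25049625 and 30015072 estimated counts, of which 90.6% to 93.3% lay on genes that could be joined to the TPM table, and 12518 of 12545 genes over 1 TPM were tested. Stra8 itself was at 18.0, 22.8 and 5.16 TPM in the Stra8-deficient libraries, at 315 and 236 TPM in the low-STRA8 libraries and at 1099 and 1248 TPM in the high-STRA8 libraries, the order that the labels give. The germ-cell marker Ddx4 was present in every library, at 148 to 213 TPM. Marker sums for other cells were not at 0: 8 Sertoli markers summed to 469 to 706 TPM, 122 to 478 TPM and 640 to 666 TPM in Stra8-deficient, then low-STRA8, then high-STRA8 cells, and 10 macrophage and blood markers to 11.5 to 30.7, 54.1 to 57.0 and 2.49 to 9.52 TPM. A set of 8 spermatogonial markers summed to 50.7 to 64.0, 15.6 to 18.8 and 21.0 to 22.5 TPM in the same order, whereas 9 markers of pachytene and later cells summed to at most 2.42 TPM, with Acr and Pgk2 listed at 0. The part of these other cells in the histone values was not tested, and in bulk libraries fewer cells of a type and less RNA per cell cannot be told apart. Among the Sertoli markers, Clu had the most counts in every library but low-STRA8 1, whereas Sox9 was at 1.55 to 7.95 TPM and Amh at 2.61 to 13.3 TPM.

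The histone stem-loop was found in nearly all clustered members and in a single variant. Within 150 bases after the stop codon, a stem of 6 bases that starts with GG, a loop of 4 bases that starts with TT, and the paired stem were found in 37 of 39 clustered members, in both germline core members and in 1 of 10 variants, H2afx, against 84 of 21472 protein-coding genes (0.391%). In these 40 members the stem-loop began 23 to 58 bases after the stop codon, with a median of 30. The 16 letters were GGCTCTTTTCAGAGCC in 29 members, and a second form with CC in the stem, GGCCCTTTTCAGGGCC, was found in 5 members, all H4 genes (Hist1h4c, Hist1h4h, Hist1h4k, Hist1h4m and Hist1h4n). The letters of 6 members are printed because each is described with its RNA levels below. They were read from the GRCm38 (mm10) reference on the strand of the gene with 5 flanking bases on either side, and the capitals mark the stem and loop.
Hist1h1a, chr13:23764392-23764407, plus strand: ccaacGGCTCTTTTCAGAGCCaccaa
Hist1h2ah, chr13:22035127-22035142, minus strand: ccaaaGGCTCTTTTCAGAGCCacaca
Hist1h2bb, chr13:23747203-23747218, plus strand: ccaaaGGCTCTTTTAAGAGCCaccca
Hist1h4k, chr13:21750150-21750165, minus strand: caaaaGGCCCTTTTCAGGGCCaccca
Hist1h4i, chr13:22040966-22040981, minus strand: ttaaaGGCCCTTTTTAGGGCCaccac
H2afx, chr9:44335240-44335255, plus strand: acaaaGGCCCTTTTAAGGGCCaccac

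The coordinates above are those of the 16 capital letters. H2afx, the variant whose phosphorylated form marks DNA breaks, was the only member of its class with a stem-loop, 46 bases after its stop codon, and its annotated transcript ran on for 822 bases past it. No match was found for Hist1h2an or Hist1h4a, which says only that these letters were not in the window searched. The polyadenylation letters AATAAA lay in the last 50 annotated bases of 8 of 39 clustered members and of 8 of 10 variants, against 64.5% of all protein-coding genes. Clustered members were on chromosome 13 (33 members, within 2.05 Mb between positions 21715763 and 23764406), chromosome 3 (4 members) and chromosome 11 (2 members). The 10 variants lay on 8 chromosomes.

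Levels in poly(A) RNA differed between the same classes, though their ranges overlapped. Over the 7 libraries, mean levels of the variants had a median of 99.0 TPM and ran from 10.8 to 1435 TPM, and those of the clustered members had a median of 1.55 TPM and ran from 0.147 to 28.2 TPM. All 10 variants exceeded 1 TPM in all 7 libraries. Of the 39 clustered members, 8 did so, 11 exceeded 1 TPM in only 1 library, and 14 passed the rule through only 1 group, of which 8 were in the high-STRA8, 4 in the low-STRA8 and 2 in the Stra8-deficient group. Counts of clustered members below therefore include genes that passed only where they were high.

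Fold changes were taken from edgeR on estimated counts of all tested genes, and a gene was called at a Benjamini-Hochberg adjusted p under 0.05. Between high-STRA8 and Stra8-deficient cells 37.1% of the 12518 genes were called, 18.8% as higher and 18.3% as lower. Among the members, 10 were higher, 4 lower and 37 did not pass. The variants carried 4 of the higher and 3 of the lower calls, the clustered members 6 and 1, and the germline core members 0. Of the 6, Hist1h2ad and Hist1h2be had passed the level rule only through the high-STRA8 libraries, where they were high. Hist1h2br had passed it only through low- and high-STRA8 libraries. The calls of these genes are therefore not read as results. Hist1h2ai and Hist2h2aa2 had passed it only through Stra8-deficient and low-STRA8 libraries. Their calls as lower in high-STRA8 cells are not read as results either. Between high-STRA8 and low-STRA8 cells 39.7% of genes were called (21.4% higher, 18.3% lower), as were 11 members: 4 variants higher and 3 lower, and 2 clustered members in each direction. Between low-STRA8 and Stra8-deficient cells 24.0% of genes were called (10.2% higher, 13.9% lower), as were 5 variants and 2 clustered members, all higher. The 3 comparisons share libraries with each other, so that they are given side by side and not as separate support.

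Both linker histone variants rose. H1f0 (chr15:79028450-79030504) encodes H1.0, the linker histone of cells that leave the cycle, and was at 57.4, 61.4 and 50.8 TPM in Stra8-deficient, 74.5 and 69.9 TPM in low-STRA8 and 98.1 and 102 TPM in high-STRA8 libraries. The 3 groups did not overlap and were ordered as Stra8 was. The log2 difference was 0.91 ± 0.10 (SE) between high-STRA8 and Stra8-deficient cells (edgeR adjusted p = 0.000287), 0.36 ± 0.11 between high- and low-STRA8 cells (adjusted p = 0.0271) and 0.55 ± 0.10 between low-STRA8 and Stra8-deficient cells (adjusted p = 0.00644). H1fx (chr6:87980421-87981637), which encodes the divergent linker histone H1.X, was at 64.2, 87.0 and 65.1 TPM, at 138 and 85.6 TPM, and at 218 and 213 TPM. High-STRA8 libraries were above all others, whereas the lower low-STRA8 library fell within the Stra8-deficient range. Its log2 differences were 1.62 ± 0.19 (edgeR adjusted p = 0.000503), 0.77 ± 0.21 (adjusted p = 0.0214) and 0.85 ± 0.19 (adjusted p = 0.0170) in the same order of comparisons. The high- against low-STRA8 calls were lost without any single low- or high-STRA8 library for H1f0 (0.31 to 0.39, edgeR adjusted p = 0.0641 to 0.228), and without low-STRA8 2 or either high-STRA8 library for H1fx (0.51 to 0.81, adjusted p = 0.0752 to 0.1001). The low-STRA8 against Stra8-deficient call of H1fx was lost without Stra8-deficient 1 (0.73, edgeR adjusted p = 0.0555) or low-STRA8 1 (0.53, adjusted p = 0.0856) and with limma on log2(TPM + 1) or log2(TPM + 0.1) (0.60 and 0.61, limma adjusted p = 0.0688 and 0.0699).

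**Figure D1:**
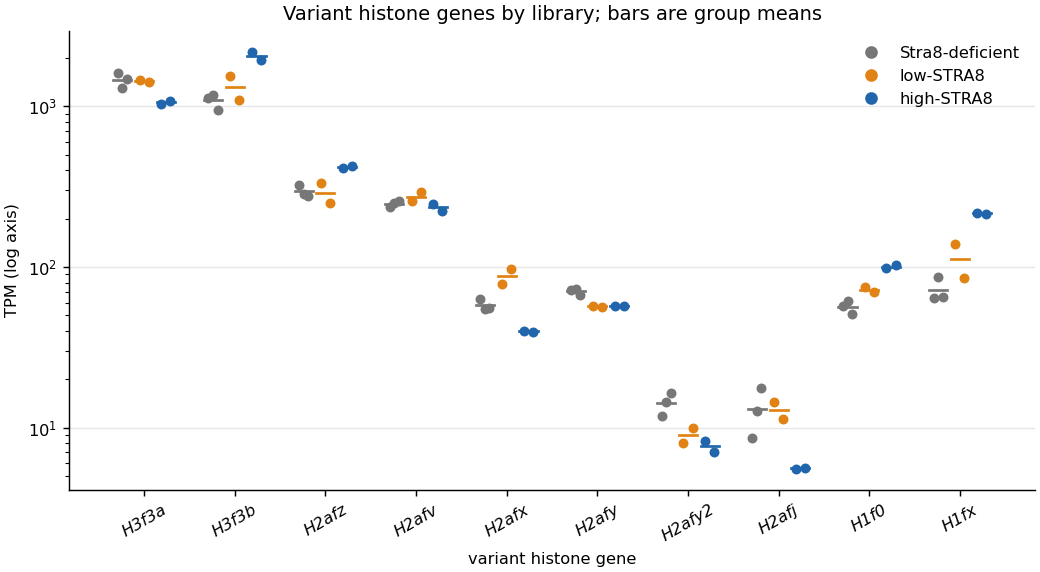
Level of each variant and replacement histone gene in each RNA library (TPM, log axis), with 3 grey points for Stra8-deficient, 2 orange for low-STRA8 and 2 blue for high-STRA8 cells and a bar at each group mean. H3f3a and H3f3b are the highest of the class in every library, H1f0 and H1fx are highest in the high-STRA8 libraries, and H2afx is highest in the low-STRA8 libraries.

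The genes for H3.3 exchanged rank in TPM between Stra8-deficient and high-STRA8 cells. H3f3a and H3f3b encode the same replacement histone, which is deposited outside replication, from separate genes on chromosomes 1 and 11. H3f3a was at 1605, 1299.6 and 1474 TPM in Stra8-deficient, 1457 and 1414 TPM in low-STRA8 and 1042 and 1082 TPM in high-STRA8 libraries. H3f3b was at 1133, 1183 and 953 TPM, at 1547 and 1101 TPM, and at 2179.6 and 1949 TPM. In high-STRA8 libraries H3f3a was thus below, and H3f3b above, its level in every other library. H3f3a fell by 0.45 ± 0.11 on the log2 scale against Stra8-deficient cells (edgeR adjusted p = 0.0123) and by 0.65 ± 0.12 against low-STRA8 cells (adjusted p = 0.00406), and H3f3b rose by 1.02 ± 0.13 (adjusted p = 0.000730) and 0.55 ± 0.15 (adjusted p = 0.0193). H3f3b accounted for 41.4%, 47.6% and 39.3% of the TPM of the pair in Stra8-deficient, 51.5% and 43.8% in low-STRA8 and 67.6% and 64.3% in high-STRA8 libraries, a group mean of 42.8% ± 4.35 (SD, n = 3), 47.6% ± 5.46 (n = 2) and 66.0% ± 2.36 (n = 2). The sum of the pair was 2427 to 2738 TPM in Stra8-deficient, 2515 and 3004 TPM in low-STRA8 and 3031 and 3222 TPM in high-STRA8 libraries. Its ratio between high-STRA8 and Stra8-deficient means was 1.23 ± 0.096 (propagated SD) in TPM and 1.46 ± 0.052 in CPM (counts scaled for library size but not for transcript length). Between low-STRA8 and Stra8-deficient cells H3f3b differed by 0.47 ± 0.13 (edgeR adjusted p = 0.0358) with overlapping groups, and H3f3a by 0.20 ± 0.11 (adjusted p = 0.199).

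Calls for the H3.3 genes depended in part on single libraries. The H3f3a call against Stra8-deficient cells was lost without high-STRA8 1 (−0.47, edgeR adjusted p = 0.0769) or high-STRA8 2 (−0.42, adjusted p = 0.133), and that against low-STRA8 cells without high-STRA8 2 (−0.64, adjusted p = 0.0506). The H3f3b call between high- and low-STRA8 cells was lost without low-STRA8 2 or either high-STRA8 library (0.36 to 0.59, edgeR adjusted p = 0.0734 to 0.0999), and that between low-STRA8 and Stra8-deficient cells without any single library other than low-STRA8 2 (0.26 to 0.52, adjusted p = 0.0555 to 0.188), with limma (0.27, adjusted p up to 0.264) and when only these groups were fitted (0.48, adjusted p = 0.0547).

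The H2A variants moved in different directions. H2afx (chr9:44334694-44336077) was at 63.5, 54.6 and 55.2 TPM in Stra8-deficient, 78.6 and 97.4 TPM in low-STRA8 and 40.1 and 39.6 TPM in high-STRA8 libraries, 3 groups without overlap. It was thus highest in the low-STRA8 group and lowest in the high-STRA8 group, with log2 differences of −1.30 ± 0.15 between those groups (edgeR adjusted p = 0.000908), −0.47 ± 0.14 between high-STRA8 and Stra8-deficient cells (adjusted p = 0.0265) and 0.82 ± 0.13 between low-STRA8 and Stra8-deficient cells (adjusted p = 0.00505). The macrophage and blood marker sum was ordered in the same way, at 11.5 to 30.7, 54.1 to 57.0 and 2.49 to 9.52 TPM. Within it, the globin genes Hba-a1, Hba-a2, Hbb-bs and Hbb-bt were highest in both low-STRA8 libraries (Hba-a1 at 6.22 and 6.87 CPM, here with library sizes normalized as in the edgeR fit). The macrophage and leukocyte genes Lyz2, Csf1r, Cd68 and Ptprc did not follow this order and were each highest in Stra8-deficient 3. Lyz2 was at 8.14 TPM there and at 0.684 and 0.511 TPM in low-STRA8 libraries. The part of these other cells in the H2afx values was not tested. H2afz, which encodes H2A.Z, the variant found at promoters, was at 325, 286 and 276 TPM, at 332 and 249.7 TPM, and at 416 and 423 TPM. High-STRA8 libraries were above all others (0.60 ± 0.12, edgeR adjusted p = 0.00435, against Stra8-deficient, and 0.48 ± 0.13, adjusted p = 0.0191, against low-STRA8 cells), but 60.1% of the 31-base words of H2afz occur in other genes. H2afv, which encodes a second H2A.Z protein, was at 236 to 259 TPM, at 257 and 292 TPM, and at 248 and 225 TPM, with a log2 difference of 0.01 ± 0.11 between high-STRA8 and Stra8-deficient cells (adjusted p = 0.947).

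MacroH2A, a variant with a large extra domain that is known from silent chromatin, comes from H2afy and H2afy2. H2afy2 was at 11.8, 14.4 and 16.3 TPM in Stra8-deficient, 7.99 and 9.91 TPM in low-STRA8 and 8.24 and 7.06 TPM in high-STRA8 libraries, and fell by 0.81 ± 0.22 on the log2 scale between high-STRA8 and Stra8-deficient cells (edgeR adjusted p = 0.0205). H2afy was at 66.8 to 73.2 TPM, at 57.2 and 56.7 TPM, and at 57.4 and 57.3 TPM, and its log2 difference of −0.22 ± 0.09 did not pass (adjusted p = 0.0879). H2afj was at 8.56, 12.7 and 17.7 TPM, at 14.4 and 11.3 TPM, and at 5.55 and 5.60 TPM, lower in both high-STRA8 libraries than in every other, but its log2 difference of −0.78 ± 0.31 against Stra8-deficient cells did not pass either (adjusted p = 0.0776).

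**Figure D2:**
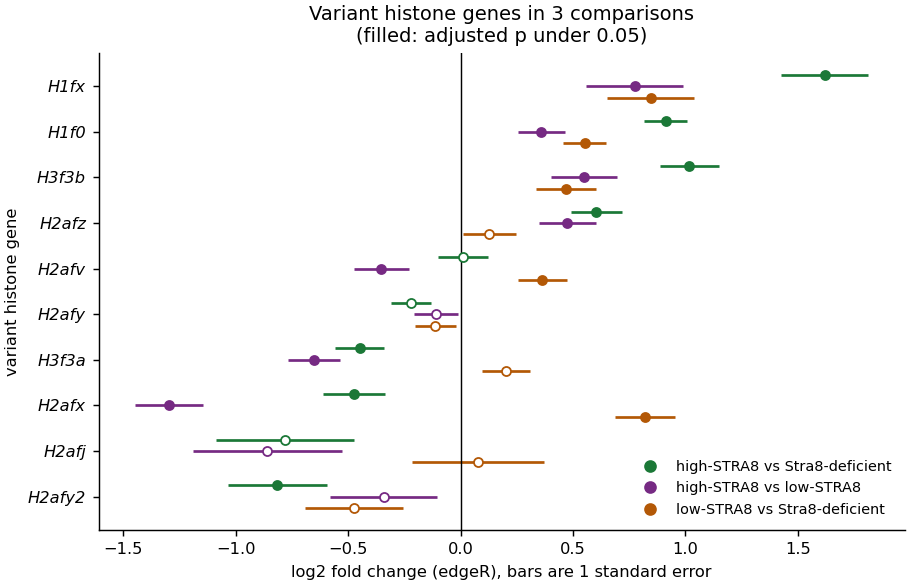
Log2 fold change of each variant and replacement histone gene in the 3 comparisons from 1 edgeR fit, with bars of 1 SE and filled points for calls at an adjusted p under 0.05. H1fx, H3f3b, H1f0 and H2afz lie above 0 in high-STRA8 against Stra8-deficient cells, and H2afx, H3f3a and H2afy2 below it.

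Several of these calls also rested on single libraries. The high-STRA8 against Stra8-deficient call was lost for H2afx without Stra8-deficient 1 or 3 or either high-STRA8 library (−0.43 to −0.50, edgeR adjusted p = 0.0667 to 0.196), for H2afy2 without Stra8-deficient 2 or 3 or either high-STRA8 library (−0.67 to −0.93, adjusted p = 0.0513 to 0.173), and for H2afz without high-STRA8 2 (0.51, adjusted p = 0.0616). The H2afz call against low-STRA8 cells was lost without low-STRA8 2 (0.36, edgeR adjusted p = 0.0897) or high-STRA8 2 (0.37, adjusted p = 0.173). H2afv passed between high- and low-STRA8 cells (−0.35 ± 0.12, edgeR adjusted p = 0.0480) and between low-STRA8 and Stra8-deficient cells (0.36 ± 0.11, adjusted p = 0.0441), but without single libraries adjusted p reached 0.295 and 0.155. The former call was lost without any library but Stra8-deficient 1 or 3, and the latter without any but Stra8-deficient 3. Both were also lost with limma (edgeR −0.35 became −0.21, limma adjusted p up to 0.138, and 0.36 became 0.14, adjusted p up to 0.314).

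Among the clustered genes, the linker histone Hist1h1a (chr13:23763666-23764406) had the only call that held in every alternative analysis. It encodes H1.1, a replication-dependent linker histone known from spermatogonia and early spermatocytes, and it was at 2.59, 5.44 and 1.95 TPM in Stra8-deficient, 7.45 and 4.10 TPM in low-STRA8 and 18.1 and 18.7 TPM in high-STRA8 libraries. Both high-STRA8 libraries were above all others, with 119 and 109 estimated counts against 14 to 56. The log2 difference was 2.46 ± 0.44 against Stra8-deficient cells (edgeR adjusted p = 0.00321) and 1.43 ± 0.48 against low-STRA8 cells (adjusted p = 0.0441), and the latter was lost without Stra8-deficient 1, low-STRA8 2 or either high-STRA8 library (1.10 to 1.45, adjusted p = 0.0596 to 0.156). No more than 0.3% of its 31-base words occur in another gene. Hist1h1c, which encodes the linker histone H1.2, was at 2.49 to 4.45 TPM, at 4.60 and 3.45 TPM, and at 4.13 and 3.86 TPM, a log2 difference of 0.36 ± 0.31 (adjusted p = 0.404).

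The other 5 clustered members called as higher in high-STRA8 cells against the Stra8-deficient group encode H2A or H2B. Hist1h2ah was at 0, 0.925 and 3.03 TPM in Stra8-deficient, 0 and 2.19 TPM in low-STRA8 and 22.0 and 24.0 TPM in high-STRA8 libraries, and was higher against both (3.82 ± 1.01, edgeR adjusted p = 0.0182, and 3.81 ± 1.19, adjusted p = 0.0345). Hist1h2bb was at 1.16, 0.676 and 0 TPM, at 1.75 and 0.633 TPM, and at 6.40 and 6.65 TPM (3.18 ± 0.83 against Stra8-deficient cells, edgeR adjusted p = 0.0173). Both genes were thus highest in the 2 high-STRA8 libraries, without overlap. Hist1h2ad reached 3.87 and 5.31 TPM in high-STRA8 libraries and no more than 0.667 TPM in any other, and Hist1h2be 1.34 and 2.08 TPM against no more than 0.870 TPM. Because these values also admitted both genes as members, no test is given for them. Hist1h2br was at 10.3 and 1.96 TPM in high-STRA8 libraries and at 5.23 and 0.664 TPM in low-STRA8 libraries, against 0.0573, 0.00617 and 0.0145 TPM in Stra8-deficient libraries. It passed the level rule only through low- and high-STRA8 libraries, so no test against Stra8-deficient cells is given for it. Its annotation, like that of Hist1h2bq, includes a second form that skips the stem-loop. The share of words that occur in other genes was 99.8% for Hist1h2br, 92.5% for Hist1h2ah, 68.3% for Hist1h2ad, 47.7% for Hist1h2bb and 20.1% for Hist1h2be. The calls against Stra8-deficient cells were lost without high-STRA8 1 and without high-STRA8 2, with an edgeR adjusted p of 0.0930 and 0.0729 for Hist1h2ah and 0.0916 and 0.0674 for Hist1h2bb. Further losses came without Stra8-deficient 2 for Hist1h2ah (edgeR adjusted p = 0.0739 and 0.0602 in the 2 comparisons) and Hist1h2bb (adjusted p = 0.0543), and without low-STRA8 1 or either high-STRA8 library for Hist1h2ah against low-STRA8 cells (adjusted p = 0.0704 to 0.124).

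The clustered calls in the other direction, and those of the low-STRA8 group, fell on genes with close copies. Hist1h2ai was at 0, 2.94 and 0 TPM in Stra8-deficient, 20.2 and 12.9 TPM in low-STRA8 and 0 and 0 TPM in high-STRA8 libraries. Hist2h2aa2 was at 4.54, 0.175 and 20.8 TPM and at 13.6 and 10.1 TPM and had 0 rounded counts in both high-STRA8 libraries. Both genes passed the level rule only through Stra8-deficient and low-STRA8 libraries, so no test against high-STRA8 cells is given for them. All 31-base words of Hist2h2aa2 occur in other genes (100%), as do 92.0% of those of Hist1h2ai. Hist2h2aa1, a gene of the same name stem with which Hist2h2aa2 shares over 50% of its words, was at 23.0, 34.2 and 16.2 TPM, at 39.1 and 8.79 TPM, and at 41.0 and 35.0 TPM. The sum of this pair was at 27.5, 34.4 and 37.0 TPM, at 52.7 and 18.8 TPM, and at 41.0 and 35.0 TPM, and its log2 difference was 0.25 ± 0.38 between high-STRA8 and Stra8-deficient cells (edgeR adjusted p = 0.646). Hist1h4k, one of the H4 genes with CC in its stem-loop and 86.2% of its words in other genes, was at 1.64, 3.61 and 5.11 TPM, at 13.6 and 11.0 TPM, and at 3.54 and 11.8 TPM (2.11 ± 0.66 between low-STRA8 and Stra8-deficient cells, adjusted p = 0.0495). Leaving out a library took the Hist1h4k call in 6 of 7 cases (without any but Stra8-deficient 3), with log2 differences of 1.80 to 2.56 over all 7. Hist1h2ai passed between low-STRA8 and Stra8-deficient cells (4.19 ± 1.03, edgeR adjusted p = 0.0256), but not without Stra8-deficient 1 (3.63, adjusted p = 0.0704) or low-STRA8 1 (3.90).

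The other clustered genes named by the rule were not called in any comparison. Hist1h2bc was at 5.31, 9.61 and 9.49 TPM in Stra8-deficient, 15.8 and 2.84 TPM in low-STRA8 and 10.6 and 8.98 TPM in high-STRA8 libraries. Hist1h4i, whose stem-loop letters were found in no other member, was at 2.27, 4.73 and 3.03 TPM, at 4.41 and 2.94 TPM, and at 4.34 and 4.69 TPM. Hist1h4a was at 0.507, 1.20 and 1.13 TPM, at 1.09 and 0.117 TPM, and at 3.41 and 3.39 TPM, higher in the high-STRA8 libraries than in every other, but with a log2 difference of 1.72 ± 0.72 that did not pass (edgeR adjusted p = 0.0973). Hist1h3a reached 2.79 and 1.27 TPM in high-STRA8 libraries against 0 to 1.01 TPM elsewhere. Hist1h2bq was at 0.426, 0.0595 and 0.0501 TPM, at 5.45 and 0.791 TPM, and at 10.9 and 1.35 TPM. It lay above the Stra8-deficient range in both other groups, which overlapped with each other. Hist1h3a and Hist1h2bq passed the level rule only through low- and high-STRA8 libraries, so no test against Stra8-deficient cells is given for them. All words of Hist1h2bq also occur in Hist1h2br (100%). For Hist1h4m, Hist3h2a and Hist3h2ba all 3 groups overlapped. The 20 clustered members not named here had mean levels between 0.147 and 2.64 TPM.

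**Figure D3:**
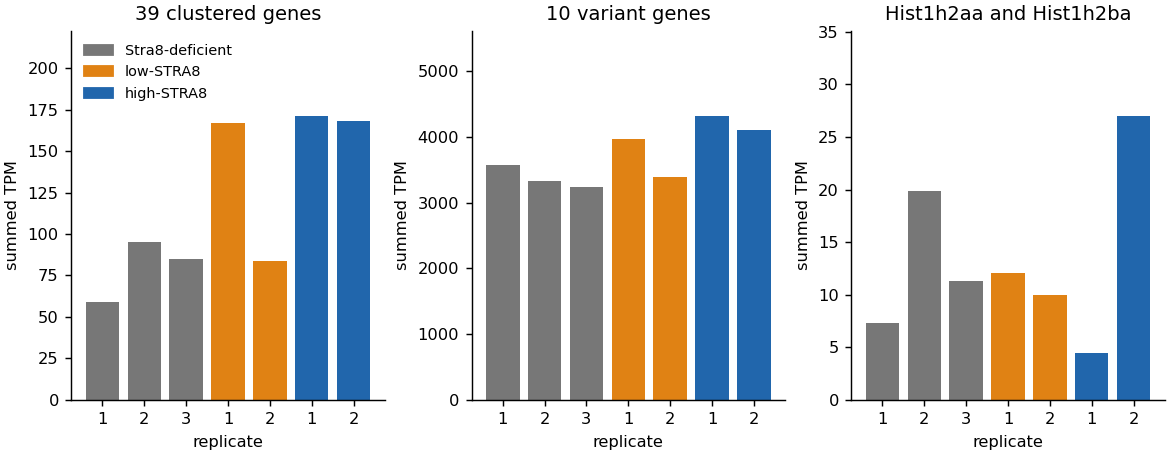
Summed level (TPM) of clustered, variant and germline core histone members in each of the 7 RNA libraries, each class on its own axis. The clustered sum was 171 and 169 TPM in the high-STRA8 libraries and 59.0 to 95.2 TPM in the Stra8-deficient libraries, and the low-STRA8 libraries were apart at 167 and 83.8 TPM.

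Sums over each class set these genes against each other. The clustered members summed to 59.0, 95.2 and 85.1 TPM in Stra8-deficient, 167 and 83.8 TPM in low-STRA8 and 171 and 169 TPM in high-STRA8 libraries, so that the mean of the high-STRA8 group was 2.13 ± 0.50 (propagated SD) times that of the Stra8-deficient group. In CPM the same ratio was 1.60, and without members that share over 50% of their words it was 2.15 in TPM. The variants summed to 3234 to 3576 TPM, 3387 and 3963 TPM, and 4104 and 4313 TPM, a ratio of 1.25 ± 0.079 (propagated SD; 1.41 in CPM). Clustered members made up 1.62% to 2.77% of the members' TPM in Stra8-deficient, 2.41% and 4.04% in low-STRA8 and 3.81% and 3.92% in high-STRA8 libraries. By family the TPM ratio, with its propagated SD, was 3.40 ± 1.498 for H1, 1.74 ± 0.36 for H2A, 2.53 ± 0.58 for H2B, 2.53 ± 2.08 for H3 and 2.20 ± 1.04 for H4, and in CPM it was 2.16 for H1, 1.297 for H2A, 1.63 for H2B, 3.11 for H3 and 1.67 for H4. The H1 ratio rested on Hist1h1a, since Hist1h1c averaged 3.26 TPM in the Stra8-deficient group and 4.00 TPM in the high-STRA8 group. The median log2 difference of the clustered members between high-STRA8 and Stra8-deficient cells was 0.64. It was 0.92 with the 8 genes that had a group at 0 set to their bounds, from a floor of 3 counts over that group. The median of the variants was −0.10, beside −0.017 for all tested genes. Of the 39 clustered members, 30 had a positive difference. These medians, counts and sums describe the members that passed the level rule and were not tested. Of the clustered members, 8 passed it only through the high-STRA8 group and 2 only through the Stra8-deficient group. The rule itself thus favours positive differences between these groups.

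Another RNA without a poly(A) tail was also highest in the high-STRA8 libraries. Rn7sk, the small nuclear RNA that restrains the elongation factor P-TEFb, had 37, 22 and 22 estimated counts in Stra8-deficient, 23 and 28 in low-STRA8 and 93 and 51 in high-STRA8 libraries. Rpph1, the RNA of RNase P, had 8, 4 and 8, 8 and 4, and 10 and 2 counts, and Rmrp, that of RNase MRP, had 5, 11 and 5, 1 and 4, and 16 and 0 counts. The part of retained non-polyadenylated RNA in the clustered values was not tested. Nor was that of the annotated ends: the models of 9 clustered members end before their stem-loop does, those of 15 end under 100 bases past it, and those of 11 go on for 100 or more bases.

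The clustered genes resemble each other closely enough that reads can be split among them. Kallisto assigns reads by words of 31 bases, and a median of 67.2% of the words of a clustered member also occur in another gene, against 12.4% for a variant. Over 50% of words were shared in 26 of 39 clustered members, in 6 of the 9 that were called in any comparison, and in 1 of 10 variants. The median log2 difference between high-STRA8 and Stra8-deficient cells was 1.13 in the 13 clustered members that share at most 50% of their words and 0.60 in the 26 that share more. The values of single members of the latter set are uncertain.

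**Figure D4:**
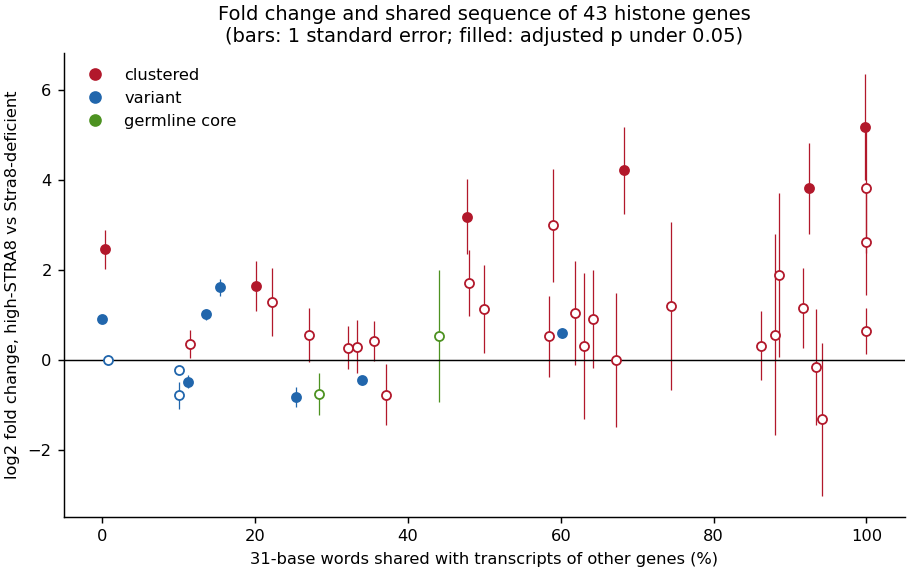
Log2 fold change between high-STRA8 and Stra8-deficient cells against the percentage of 31-base words that a member shares with other genes, for the 43 members with counts in both groups, filled where called. Variants lie mostly at the left, and most clustered members lie above 50% of shared words.

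Genes that share over 50% of their words were therefore also summed and tested together, an analysis chosen after the data had been seen. The sum of 12 Hist1h2a genes was at 1.42, 8.14 and 10.2 TPM in Stra8-deficient, 27.6 and 17.9 TPM in low-STRA8 and 27.1 and 37.8 TPM in high-STRA8 libraries. It was higher than in Stra8-deficient cells both in high-STRA8 cells (2.03 ± 0.54, edgeR adjusted p = 0.0181) and in low-STRA8 cells (1.76 ± 0.54, adjusted p = 0.0468), whereas high- and low-STRA8 cells differed by 0.28 ± 0.57 (adjusted p = 0.733). The opposite patterns of Hist1h2ah and Hist1h2ai, which both belong to this group, were thus not visible in its sum. A group of 14 H2B genes was at 9.72, 15.1 and 14.8 TPM, at 34.1 and 9.21 TPM, and at 42.1 and 32.3 TPM and did not pass (0.93 ± 0.48, adjusted p = 0.165). Neither did 9 H3 genes (1.67 ± 0.65, edgeR adjusted p = 0.0741) or 7 H4 genes (0.89 ± 0.35, adjusted p = 0.0814).

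The germline core histones had mean levels of 7.97 and 5.18 TPM in poly(A) RNA, and the linker ones stayed below 1 TPM. Both core genes and Hist1h1t carry the stem-loop, and poly(A) selection retains little of mRNAs that end in it. Low levels here therefore cannot show how much of their mRNA was made. Hist1h2aa, which encodes the testis-specific TH2A, was at 7.34, 9.48 and 7.19 TPM in Stra8-deficient, 12.1 and 7.96 TPM in low-STRA8 and 4.48 and 7.24 TPM in high-STRA8 libraries (−0.74 ± 0.47, edgeR adjusted p = 0.251, between high-STRA8 and Stra8-deficient cells). Its partner Hist1h2ba, which encodes TH2B, was at 0, 10.4 and 4.12 TPM, at 0 and 2.03 TPM, and at 0 and 19.7 TPM, listed at 0 in 1 library of each group (adjusted p = 0.798). Neither gene passed in any comparison. Hist1h1t, the linker histone of pachytene spermatocytes, did not reach 1 TPM and was at 0.0943 to 0.709 TPM over the 7 libraries. The oocyte linker histone H1foo was at 0 to 0.220 TPM, and H1fnt, that of spermatids, was listed at 0 in all 7 libraries.

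Some of the genes that make or carry histones were also called. Of 17 genes for transcription, 3′ processing and decay of replication-dependent histone mRNA, high-STRA8 cells had 7 called higher and 2 lower against the Stra8-deficient group (10 and 2 against the low-STRA8 group; 4 and 3 when the latter was set against Stra8-deficient cells), and of 25 chaperone and import genes 10 were higher and 3 lower (12 and 4, and 7 and 6). Over all tested genes, 18.8% were called higher and 18.3% lower in the first of these comparisons, 21.4% and 18.3% in the second, and 10.2% and 13.9% in the third. Slbp, whose protein binds the stem-loop, was at 187 to 197 TPM in Stra8-deficient, 354 and 265 TPM in low-STRA8 and 614 and 595 TPM in high-STRA8 libraries (1.79 ± 0.11, edgeR adjusted p = 5.77e-05, against Stra8-deficient cells). Lsm10, another of the 17, was lowest in the high-STRA8 libraries, at 26.2 to 29.5, 27.2 and 35.9, and 10.1 and 10.4 TPM in the same order.

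STRA8 summits lay near 14 of the 51 members (27.5%), where a summit within 1 kb of a start site in at least 2 of 3 Stra8-FLAG libraries was counted, beside 22.5% of 12322 genes over 1 TPM. No member had a summit in a wild-type library. The 14 were 5 of 10 variants (H1f0, H1fx, H2afx, H3f3a and H3f3b), 7 of 39 clustered members (Hist1h1a, Hist1h1c, Hist1h3a, Hist1h4a, Hist1h4k, Hist3h2a and Hist3h2ba) and both germline core members. The latter are neighbours, so that summits within 1 kb of both starts were counted for both. In high-STRA8 cells, 4 of the 14 were called higher and 2 lower against the Stra8-deficient group, where 18.8% and 18.3% of all tested genes were. The same counts were 4 and 2 against the low-STRA8 group (21.4% and 18.3% of all genes), and low-STRA8 cells had 5 and 0 against the Stra8-deficient group (10.2% and 13.9%). Of the 14, 8 had a summit in all 3 Stra8-FLAG libraries, and without replicate 1 or replicate 2 the rule kept 8 members (15.7%, beside 12.1% and 13.2% of genes over 1 TPM). Within 500 bases of a start site, or at a score of at least 10, 9 members remained (17.6%), below the 21.2% of genes for the former and near the 18.0% for the latter.

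The letters CNCCTCAG, searched on both strands within 1 kb of a start site, occurred at 43.0% of all protein-coding genes and 46.3% of those over 1 TPM. They occurred at 3 of 10 variants (H1fx with 3 matches, H2afx with 1 and H3f3b with 1), at 5 of 39 clustered members and at no germline core member. The highest scores, as −log10 p, were those of H2afx, at 118, 158 and 47.1 in the 3 libraries, 546 to 582 bases downstream of the start in the 3′ UTR. The summits of Hist1h4a had scores of 45.0, 26.4 and 11.9 and lay at −281 to −195 bases from its start, that is, upstream. The centre of the nearest match was 23.5, 9.5 and 34.5 bases away in replicates 1, 2 and 3, and this was not the same match for each. The same summits lie within 1 kb of the start of Hist1h3a, the H3 gene beside Hist1h4a, and are counted for both. Sequences at these genes are printed because they hold the match nearest to the strongest summits of their class. That of Hist1h4a spans its strongest summit, that of replicate 1, and that of H2afx holds no summit, the nearest being 46.5 bases from the centre of the match. The Hist1h4a summits of replicates 2 and 3, and the match nearest to them, lie outside the stretch. The sequences were read from GRCm38 (mm10) on the strand of the gene, and the capitals mark CNCCTCAG as it reads from the other strand.
Hist1h4a, chr13:23761451-23761571, minus strand: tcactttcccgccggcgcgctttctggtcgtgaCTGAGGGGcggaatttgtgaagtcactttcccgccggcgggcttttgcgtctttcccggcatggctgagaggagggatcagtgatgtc
H2afx, chr9:44335180-44335207, plus strand: ctcaggagtaCTGAGGGGgcccgcgccg

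The Hist1h4a stretch reaches 60 bases to either side of a summit, and that of H2afx reaches 10 bases to either side of the match, which contains the stop codon of the gene (44335191 to 44335193). A match of letters is a description of the sequence and not of a bound site. In H1f0 the strongest summit of each library lay 26 to 35 bases downstream of the start, with scores of 25.2, 27.4 and 17.7, and in H3f3a 2 to 112 bases downstream, with scores of 30.1, 27.4 and 8.41. Neither gene had a match to CNCCTCAG. H3f3b had summits in 2 libraries, with scores of 13.8 and 9.04, which lay 546 and 754 bases downstream of a start in a coding exon. The strongest summit of H1fx in each library had a score of 44.2, 37.2 and 17.4 and lay 205 to 552 bases downstream, and the summits of Hist1h1a, with scores of 15.6, 10.2 and 9.48, lay 280 to 636 bases downstream in its single coding exon, in 2 libraries.

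**Figure D5:**
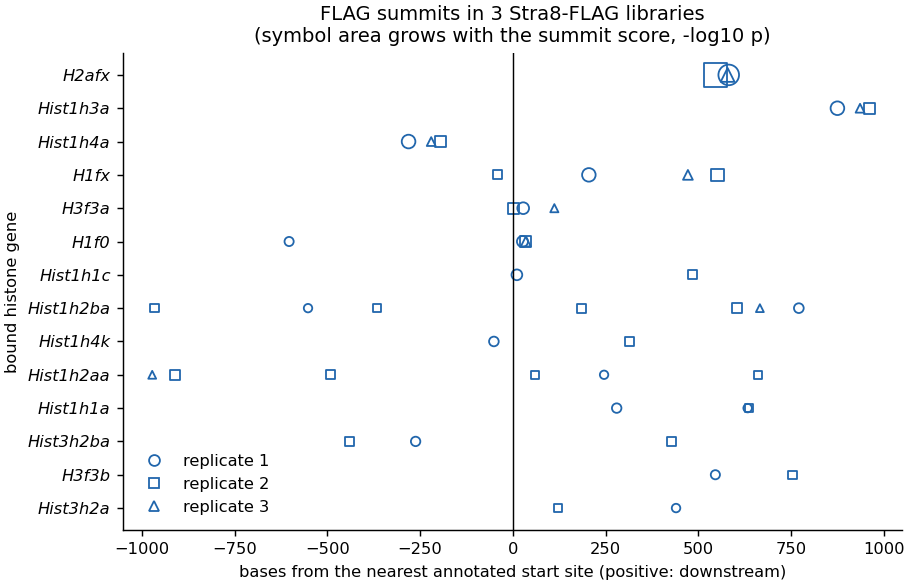
Distance of STRA8 summits from the start site (bases, negative upstream) for the members counted as bound, with a symbol shape for each Stra8-FLAG library and an area that grows with the score (−log10 p). H2afx summits lie 546 to 582 bases downstream and those of Hist1h4a at −281 to −195 bases.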

How the data were processed

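Poly(A) RNA-seq of 7 sorted preleptotene samples and FLAG ChIP-seq summits of 6 testes were used, grouped by the submitters' labels. Per the submitters' processing notes, the authors quantified transcripts with kallisto 0.43.0 as estimated counts and TPM with an effective length for each transcript, and the deposited TPM tables hold 1 value per gene after transcripts were summed. The authors aligned ChIP reads to mm10 with Bowtie 1.2.0 and SAMtools 1.3.1 and called summits with MACS2 2.1.1.20160309, which scores each as −log10 p, for each sample. The authors' normalized values per gene and the input libraries were not used here.

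Estimated counts were summed by gene, joined to the TPM tables by symbol (12225 genes) or by runs of neighbouring transcripts (293), and rounded. Another 27 genes could not be joined. All 12518 genes over 1 TPM in at least 1 library were fitted in edgeR 4.0.16 (TMM, robust quasi-likelihood F test, 7 libraries, R 4.3.3), with Benjamini-Hochberg adjustment over all of them and a threshold of 0.05. The script was tested on simulated data. P-values measure only the spread between these samples. Fold changes are of counts, not of TPM. Precision is limited for clustered genes, most of which had few counts per library.

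Stem-loops, 31-base words and the letters CNCCTCAG were read from the GRCm38 reference and its GENCODE annotation, a release other than that of the authors. Members were fixed by symbol. Named genes were all variant and germline core members, the 12 clustered members of highest mean TPM, the 8 of smallest p among the called in each comparison, and those counted as bound. Germline linker genes, below 1 TPM, are given for completeness. Members and lists were chosen with earlier results of these data known. Alternatives were DESeq2 1.42.0, limma 3.58.1 on log2(TPM + 1) and log2(TPM + 0.1), RLE normalization, effective length offsets, no or a stricter TPM filter, fits of 2 groups, a replicate block, leaving out each library and, added after the data were seen, summing of genes with shared words.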

Additional observations from a re-analysis of the deposited data

How the results depend on the processing

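The count of called members between high-STRA8 and Stra8-deficient cells was 14, and 11 to 18 under other tools, normalizations and filters, but 9 of 23 features when genes with shared words were summed and 6 to 13 when a library was left out. Between high- and low-STRA8 cells it was 11, 8 to 15 under those alternatives, 8 with summing and 2 to 14 with a library left out. Between low-STRA8 and Stra8-deficient cells it was 7, with 4 when only these groups were fitted, 6 with summing and 2 to 6 with a library left out. Of 32 called results of named genes, 7 stayed called in every alternative: H1f0, H1fx, H3f3b and Hist1h1a between high-STRA8 and Stra8-deficient cells, H1f0 and H2afx between low-STRA8 and Stra8-deficient cells, and H2afx between high- and low-STRA8 cells. All 32 had the same sign in every alternative that fitted single genes. In the summed fit, the group of Hist2h2aa2 differed by 0.25 between high-STRA8 and Stra8-deficient cells. That of Hist1h2ai differed by 0.28 between high- and low-STRA8 cells, and both signs were opposite to those of the single genes. The 32 include the calls of Hist1h2ad, Hist1h2be and Hist1h2br, which are not read as results. They also include those of Hist1h2ai and Hist2h2aa2 against high-STRA8 cells, which are not read as results either. Apart from left-out libraries and the block, calls were lost under limma for H1fx, H2afv and H3f3b between low-STRA8 and Stra8-deficient cells, H2afv between high- and low-STRA8 cells, and Hist1h2be (also under DESeq2) and Hist2h2aa2 between high-STRA8 and Stra8-deficient cells. Effective length offsets, other filters, RLE normalization or fits of 2 groups took calls of H1f0 (between high- and low-STRA8 cells), H2afv, H3f3b, Hist1h4k and Hist2h2aa2. DESeq2 called 30 of the 32, and 13 and 10 remained called without high-STRA8 1 and 2. The cause of these losses was not tested, but leaving out a library leaves 1 or 2 samples in its group.

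Deviations of same-numbered libraries from their group means correlated at −0.120 to −0.009. In a group of 2 libraries the 2 deviations mirror each other, so these values cannot decide whether replicate numbers pair the samples. With the replicate number as a block, 10, 8 and 2 members were called in the 3 comparisons in the order above, and 20 of the 32 named calls remained.

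Members with STRA8 summits numbered 14. They numbered 9 within 500 bases of a start site (17.6% of members, beside 21.2% of genes over 1 TPM), 9 at a score of at least 10 (17.6% beside 18.0%), 8 when all 3 libraries were required (15.7% beside 11.9%) and 8 to 14 when a library was left out, so that the members' share was above that of all genes in some settings and not in others. The ratio of high-STRA8 to Stra8-deficient sums was 2.13 in TPM and 1.60 in CPM for clustered members, and 1.25 and 1.41 for variants. Low counts limit the clustered genes most, many of which had no counts in some libraries.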
